A study of Mus musculus with 2 samples.

Results

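Metallothioneins and zinc transporters form a set of 10 genes in the ileum of mice, namely the metallothioneins Mt1, Mt2 and Mt3, the zinc sensor Mtf1, the zinc exporters Slc30a1, Slc30a2 and Slc30a10, and the zinc importers Slc39a4, Slc39a5 and Slc39a14. They were chosen by gene name from the 23358 genes of the authors' table, with the values of the 2 groups already known, so every difference below is a description and none is a test. All 10 had a row and a value above 0 in both groups. The groups, E and D, were BALB/c mice, 10 per group, 21 days old when they were grouped. Mice of group E received 0.1 ml of saline into the peritoneum, 0.2 ml of castor oil by mouth, and 0.5 h later 0.3 ml of EA at 10 mg/ml, once a day for 3 days. Mice of group D received the same saline and castor oil and then 0.3 ml of saline in place of EA. EA is ellagic acid, a plant polyphenol, and castor oil is a laxative used to induce diarrhea. Both groups thus carried the diarrhea treatment, and they differed in EA on top of it. The study reports diarrhea in fewer mice of group E than of group D. A difference from EA itself and one from less diarrhea cannot be told apart. Mice without castor oil were not analysed here. RNA was taken from ileum washed in saline, and the study describes 2 libraries per group, but the table holds 1 joined value per gene and group. No SD, interval or p-value can therefore be computed from these values, and the spread between mice or libraries cannot be seen in them. The authors' own P-values and q-values were not used here.

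Zinc in the gut is taken up by importers of the ZIP family (Slc39a), which move zinc into the cytoplasm, and leaves it by exporters of the ZnT family (Slc30a), which move zinc out of the cell or into vesicles. Metallothioneins are small cysteine-rich proteins that bind zinc and copper in the cell. Their genes are switched on by the transcription factor MTF1, which senses zinc and binds metal response elements in promoters, and in mice Mt1 and Mt2 are also known to respond to glucocorticoids and inflammation.

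Mt1 and Mt2 lie side by side and differed in their values, so the 250 bases before the start of each gene are shown, from RefSeq on GRCm38.p6, plus strand (Mt1 chr8:94178839-94179088, Mt2 chr8:94172368-94172617). Capitals mark each metal response element core, searched as TGCACNC or TGCGCNC on both strands.
Mt1 promoter: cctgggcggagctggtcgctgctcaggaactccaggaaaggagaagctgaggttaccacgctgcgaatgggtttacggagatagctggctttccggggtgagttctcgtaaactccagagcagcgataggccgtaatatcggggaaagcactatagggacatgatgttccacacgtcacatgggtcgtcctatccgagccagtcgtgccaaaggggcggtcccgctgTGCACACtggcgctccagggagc
Mt2 promoter: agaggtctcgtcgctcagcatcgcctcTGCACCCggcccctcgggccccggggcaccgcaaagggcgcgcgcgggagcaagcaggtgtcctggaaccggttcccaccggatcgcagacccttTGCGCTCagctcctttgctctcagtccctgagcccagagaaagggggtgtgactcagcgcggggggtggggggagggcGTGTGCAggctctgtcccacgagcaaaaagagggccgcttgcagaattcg
The Mt1 stretch held 1 core, TGCACAC, which begins 23 bases before the start. The Mt2 stretch held 3 cores, TGCACCC and TGCGCTC in the forward direction at 223 and 128 bases before the start and GTGTGCA, a core of the opposite strand, at 50 bases before it. Past the start, within the first 50 bases of the gene, Mt1 held 2 more cores, at bases 3 and 21, and Mt2 held 1 more, at base 5. Of 32851 mouse promoters in the table of RefSeq promoters, 21.4% held at least 1 core in the 250 bases and 1.26% held 3 or more. With the first 50 bases of the gene included, Mt1 held 3 cores and Mt2 held 4. In that longer window 25.7% of promoters held at least 1 core and 1.97% held 3 or more. The counts depend on the annotated start of each gene, and cores further into the gene were not searched. Whether most transcripts of Mt1 or Mt2 begin at that start was not tested. The counts of the 2 genes therefore do not show that either has more cores near its main start. Of the 10 members, 8 had a promoter in that table and 6 of these held a core. Slc30a10 held 3 cores, Slc30a2 held 2, Slc30a1 held 1, Slc39a5 held 1 in the first of its 2 promoters, and Mtf1 and Mt3 held none. A match of these letters describes the sequence and is not a measured binding site.

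Mt1 was the only member past a 2-fold difference. Mt1, on chr8:94179089-94180327, was at 97.6 FPKM in group E and 474 FPKM in group D, a log2 ratio of group E over group D of -2.28. FPKM are fragment counts divided by transcript length and scaled for library size, as the authors computed them. The value of group D was 4.86 times that of group E, with a difference (group E minus group D) of -376 FPKM. Measured as a rank among all 23358 genes of the table, Mt1 was the 745th highest in group E and the 120th highest in group D. The libraries are of whole tissue, so fewer cells that express Mt1 and less Mt1 RNA per cell cannot be told apart.

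Mt2, whose protein is a close relative with the same metal-binding role, stood the other way. Mt2, on chr8:94172618-94173567, was at 93.8 FPKM in group E and 66.2 FPKM in group D, a log2 ratio of 0.50 and a difference of 27.5 FPKM. It was the 789th highest gene in group E and the 1087th highest in group D. Mt1 and Mt2 therefore stood at nearly the same level in group E, with a ratio of Mt1 over Mt2 of 1.04, whereas Mt1 was 7.16 times Mt2 in group D. The sum of both was 191 FPKM in group E and 540 FPKM in group D. Mt3, best known as the metallothionein of the brain and on chr8:94152607-94154148, was barely detected and about equal, at 1.85 FPKM in group E and 1.76 FPKM in group D, a log2 ratio of 0.07 that turned to -0.29 with the summed FPKM of the whole table made equal.

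**Figure D1:**
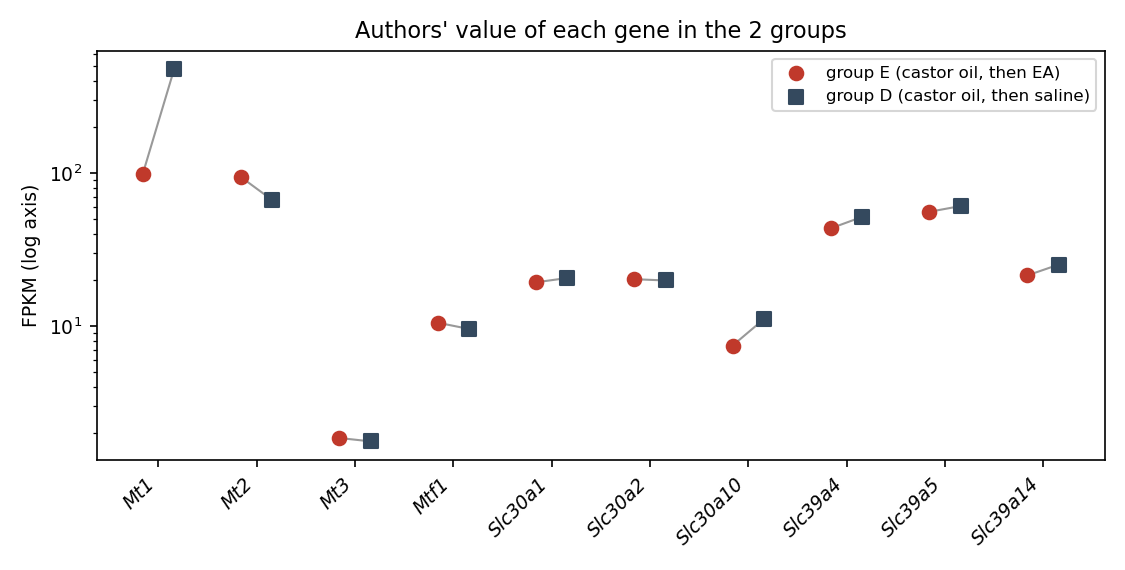
Authors' value of each of the 10 genes in FPKM (vertical, log axis), with group E as red circles left of group D as dark squares and a line joining each pair, 1 value per gene and group. Mt1 has the longest line, at 97.6 FPKM in group E and 474 FPKM in group D, and the other 9 genes have short lines.

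The genes around Mt1 on chromosome 8 were examined to see whether the difference extended beyond it. Bbs2, which lies 80.3 kb before Mt1 and encodes a part of the ciliary BBSome complex, was at 1.98 FPKM in group E and 2.18 FPKM in group D. Nup93, a nuclear pore protein gene 34.3 kb past Mt1, was at 12.6 FPKM in group E and 11.9 FPKM in group D. Mt2 begins before Mt1 and ends 5.52 kb from it, and Mt3 lies 24.9 kb away. Mt4, the metallothionein of stratified epithelia, was listed at 0 in group E and at 0.459 FPKM in group D, and it lies 40.1 kb before Mt1. Of the 6 genes of the table within 100 kb, counting Mt1 itself, Mt1 alone was past 2-fold among those listed above 0 in both groups.

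**Figure D2:**
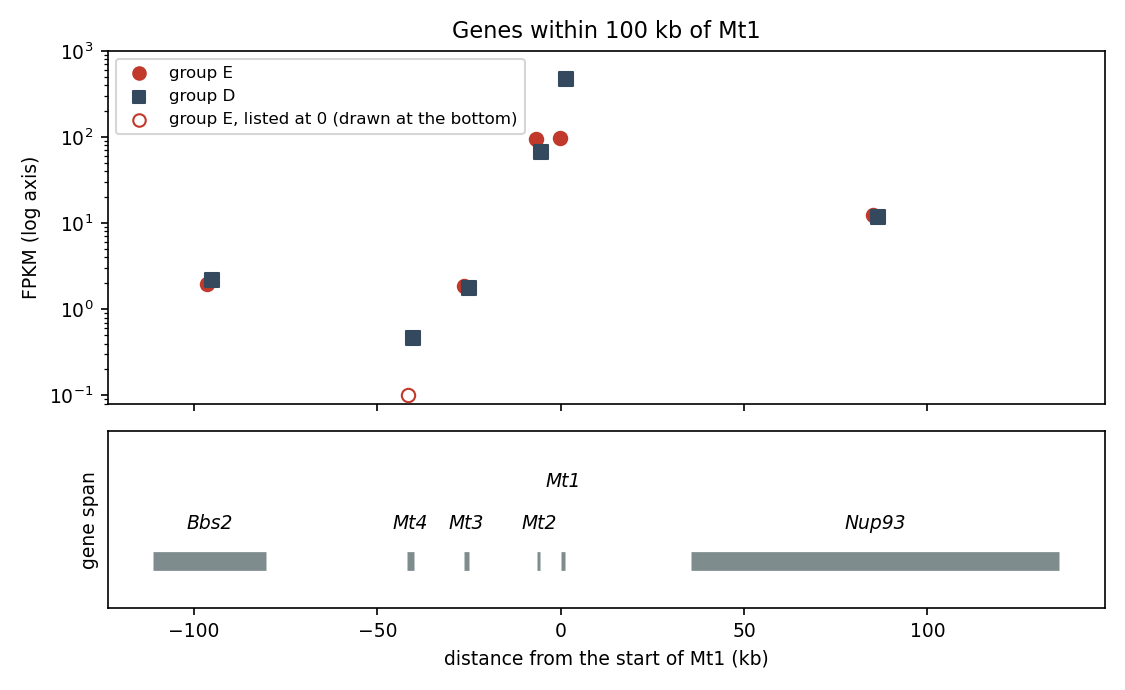
FPKM (log axis) of the genes within 100 kb of Mt1 (upper panel, group E as red circles left of group D as dark squares, an open circle for a value listed at 0) above their spans as distance in kb from the start of Mt1 (lower panel). Mt1 is the gene whose 2 values lie far apart, and Mt2, Mt3, Bbs2 and Nup93 have values close together.

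The zinc sensor and the transporters differed less. Mtf1, the sensor, on chr4:124802549-124850730, was at 10.5 FPKM in group E and 9.55 FPKM in group D, a log2 ratio of 0.14 that turned to -0.22 with the summed FPKM of the whole table made equal. Among the exporters, Slc30a1 (ZnT1), which moves zinc out across the plasma membrane and lies on chr1:191894072-191913247, was at 19.3 FPKM in group E and 20.6 FPKM in group D, a log2 ratio of -0.09. Slc30a2 (ZnT2), which loads zinc into secretory vesicles and lies on chr4:134343046-134354484, was at 20.2 FPKM in group E and 19.8 FPKM in group D, and its log2 ratio of 0.03 turned below 0 under other scalings, to -0.04 or, with the whole table made equal, -0.33. Each of these 3 genes thus had nearly equal FPKM in both groups. Slc30a10, known chiefly as a manganese exporter, on chr1:185447116-185468761, was at 7.43 FPKM in group E and 11.1 FPKM in group D, a log2 ratio of -0.58. It was the transporter member furthest from 0, just under a 1.5-fold difference, with group D at 1.49 times group E.

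The 3 importers were all lower in group E, by small amounts. Slc39a4 (ZIP4), the importer on the luminal side of the enterocyte, whose human gene is mutated in acrodermatitis enteropathica, was on chr15:76612383-76616852 at 43.4 FPKM in group E and 51.6 FPKM in group D, a log2 ratio of -0.25. Slc39a5 (ZIP5), on the basolateral side and on chr10:128395931-128401224, was at 55.6 FPKM in group E and 60.6 FPKM in group D, a log2 ratio of -0.12. Slc39a14 (ZIP14), which also carries iron and manganese, on chr14:70303467-70351424, was at 21.4 FPKM in group E and 25.2 FPKM in group D, a log2 ratio of -0.24. Their summed level was 120 FPKM in group E and 137 FPKM in group D.

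The order of the members by level was almost the same in both groups. In both, Mt1 came first, followed by Mt2, Slc39a5, Slc39a4 and Slc39a14, and Mt3 came last. Slc30a2 stood above Slc30a1 in group E and below it in group D, and Mtf1 stood above Slc30a10 in group E and below it in group D. Mt1 made up 26.3% of the members' summed FPKM of 371 in group E and 64.0% of 740 in group D. Without Mt1, the other 9 summed to 273 FPKM in group E and 266 FPKM in group D, and as deposited 4 of them were above and 5 below 0 on the log2 scale.

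A difference was counted as past 2-fold among the 12694 genes listed above 0 in both groups with a mean of at least 1 FPKM, which included all 10 members. Of these genes, 2.9% were past 2-fold in either direction, 1.31% lower and 1.59% higher in group E. Among the members 1 of 10, Mt1, was past it, and it was lower. The members were named with Mt1 known, so nothing is read from that count. At a 1.5-fold limit 10.2% of the counted genes were past it, and Mt1 was the only member in the table as deposited. Slc30a10 was past it too, at -0.61 to -0.65, under 3 other scalings (upper quartile, Actb, and equal totals of counted genes under 10000 FPKM in both groups). Centred on the median gene, Slc30a10 stood at -0.585, only just past that limit. The share of lower genes among those past 2-fold was 45.1% in the table as deposited and 56.4% with equal totals of the counted genes under 10000 FPKM. The sum of every row of the table was 589890 FPKM in group E and 459683 FPKM in group D, and making these equal, a choice made after the data were seen, lowered every log2 ratio by 0.36. With that shift Mt1 stood at -2.64 and remained the only member past 2-fold, Mt2 stood at 0.14, and Slc30a10 (-0.94), Slc39a4 (-0.61) and Slc39a14 (-0.60) were past 1.5-fold. The share of lower genes among those past 2-fold was then 85.9%. Only 0.252% of counted genes had a lower log2 ratio than Mt1, at rank 33 from the lowest. For Slc30a10 the share was 5.31% and for Mt2 it was 93.2%. The other 7 members lay between 19.6% (Slc39a4) and 67.1% (Mtf1). Among the 697 genes with a mean of at least 100 FPKM, Mt1 was 6th lowest, after Cyp2e1, Lars2, Fabp4, Scd1 and Gm12191.

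**Figure D3:**
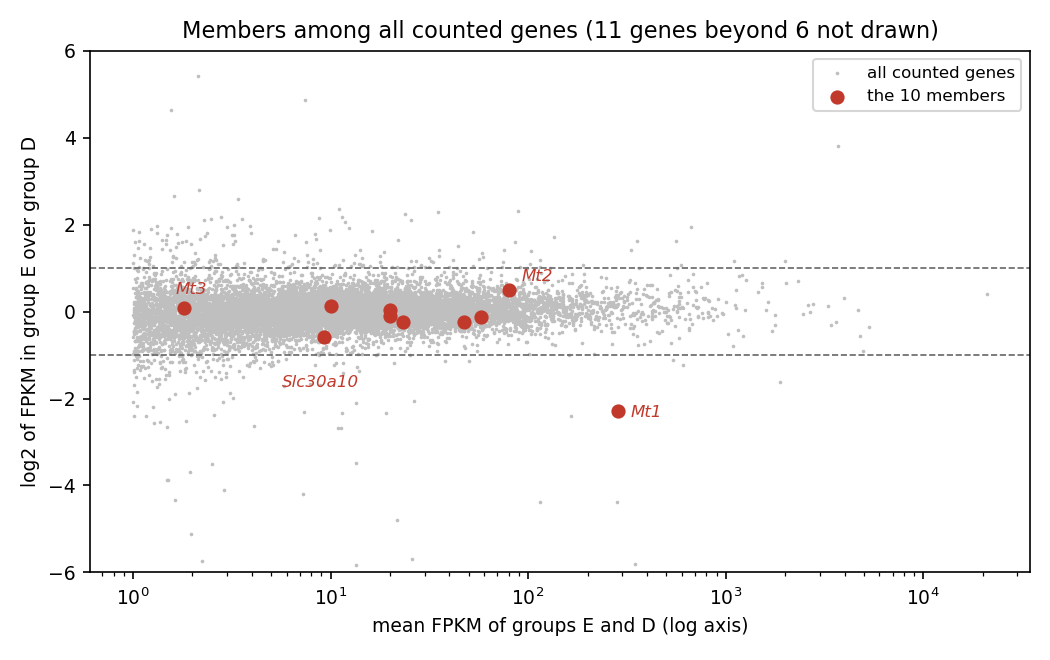
Log2 ratio of group E over group D against the mean FPKM of both groups (log axis) for the 12694 counted genes (grey) and the 10 members (red), with dashed lines at a 2-fold difference. Mt1 lies far below the lower line, at -2.28, and the other 9 members lie within the lines, while 11 genes beyond 6 on the log2 axis are not drawn.

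The remaining genes of the 2 transporter families were examined in the same way. Of 7 other ZnT genes 5 were counted, with a median log2 ratio of -0.18 and values between -0.44 and 0.08. The 2 with the highest mean were Slc30a5, an exporter into the Golgi, at 40.0 FPKM in group E and 38.3 FPKM in group D, and Slc30a4, an exporter into vesicles, at 29.9 FPKM in group E and 33.8 FPKM in group D. Slc30a8 was listed at 0 in both groups, and Slc30a3 was at 0.0303 FPKM in group E and 0.0228 FPKM in group D. Of 11 other ZIP genes 9 were counted, with a median of -0.03 and values between -0.23 and 0.33. Slc39a1, a plasma membrane importer, was at 49.8 FPKM in group E and 52.4 FPKM in group D, and Slc39a7, which releases zinc from the endoplasmic reticulum, was at 49.8 FPKM in group E and 43.0 FPKM in group D. Slc39a2 was at 0.153 FPKM in group E and 0.0192 FPKM in group D, and Slc39a12 at 0.0439 FPKM in group E and 0 in group D, so neither was counted. Over all ZnT, ZIP and metallothionein genes, 24 of 29 were counted and only Mt1 was past 2-fold. Without Mt1 they summed to 560 FPKM in group E and 561 FPKM in group D.

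Other metal genes were taken from lists of copper handling and of MTF1 targets and metal stress. Of 15 copper genes, 1 was past 2-fold and higher in group E, namely Steap4, a metalloreductase of iron and copper, at 5.82 FPKM in group E and 1.34 FPKM in group D. The median of that list was -0.01, beside 0.01 over all counted genes. Of 11 counted MTF1 targets and metal stress genes, 1 was past 2-fold and higher, the heat shock gene Hspa1b, at 3.65 FPKM in group E and 1.60 FPKM in group D, and it has a near-identical neighbour, Hspa1a, so its value is uncertain. The median of the list was 0.21, and none of its genes was lower past 2-fold. The list leaves out the members, Mt1 among them, and mixes MTF1 targets with other stress genes. Its median therefore does not stand for the MTF1 targets alone.

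**Figure D4:**
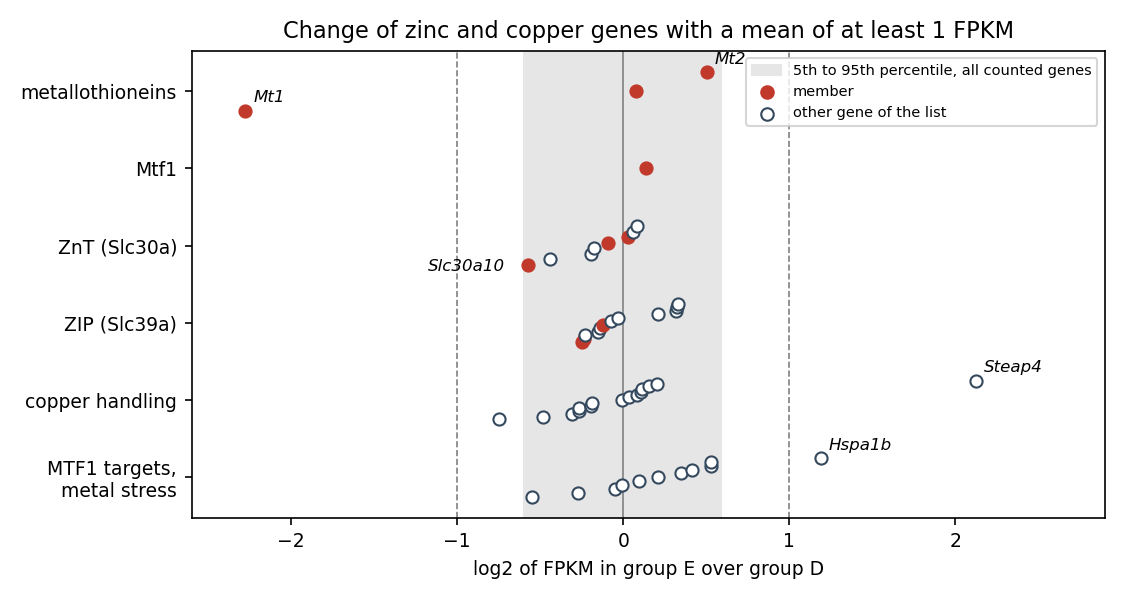
Log2 ratio of group E over group D for the genes of each list with a mean of at least 1 FPKM, members as filled red circles, other genes as open circles, and the grey band spanning -0.60 to 0.59, the 5th and 95th percentiles of all counted genes. Mt1 lies at -2.28, far left of the band, with the copper chaperone gene Cox17 at -0.75 just outside it, while Steap4 at 2.12 and Hspa1b at 1.19 lie right of it.

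Genes of responses known to move metallothionein levels were described beside Mt1. The glucocorticoid-responsive list of 14 genes had a median of 0.11, with 1 gene higher past 2-fold (the sulfotransferase Sult1a1, 18.9 FPKM in group E and 7.64 FPKM in group D) and 1 lower (the transcription factor Zbtb16, 2.54 FPKM in group E and 5.64 FPKM in group D). The IL-6 and STAT3 list had 1 of 12 counted genes lower past 2-fold, Hp (haptoglobin), at 0.468 FPKM in group E and 26.5 FPKM in group D, with a median of -0.20. Of 10 hypoxia-responsive genes, Adm, a vasodilator peptide, was past 2-fold, at 2.41 FPKM in group E and 5.44 FPKM in group D, with a median of -0.06. The medians of these 3 lists thus lay between -0.20 and 0.11, beside 0.01 over all counted genes, of which 2.9% were past 2-fold. Below 0 were 6 of 14 glucocorticoid-responsive, 8 of 12 counted IL-6 and STAT3 and 6 of 10 hypoxia-responsive genes, beside 6195 of 12694 counted genes. The whole IL-6 and STAT3 list summed to 6669 FPKM in group E and 10445 FPKM in group D. Its gene with the highest mean, Reg3b, was at 3435 FPKM in group E and 6454 FPKM in group D. Not counted in the IL-6 and STAT3 list were Il6, at 0.158 FPKM in group E and 0.847 FPKM in group D, Saa2, at 0.413 FPKM in group E and 0 in group D, and Orm1, at 3.43 FPKM in group E and 0 in group D. The part of these responses in the difference of Mt1 was not tested.

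Of the epithelial cell types, enterocyte markers had a median of -0.05 over 12 genes and 1 higher past 2-fold, Lct (lactase), at 18.4 FPKM in group E and 3.59 FPKM in group D. Paneth markers, of the cells that store zinc in their granules, had a median of 0.29 with none of 12 past 2-fold, and Defa24 was at 4654 FPKM in group E and 5993 FPKM in group D. Some defensin genes outside that list were past 2-fold, in both directions. Defa4 was lower, at 929 FPKM in group E and 2835 FPKM in group D, as was Defa26, at 2.22 FPKM in group E and 24.7 FPKM in group D. Defa22 was higher, at 15.7 FPKM in group E and 4.28 FPKM in group D. Goblet markers had a median of 0.10 with none of 10 past 2-fold, Zg16 being at 3463 FPKM in group E and 3159 FPKM in group D. Of 10 enteroendocrine markers 2 were higher past 2-fold, the hormone genes Gip (50.5 FPKM in group E and 20.7 FPKM in group D) and Sst (35.5 FPKM in group E and 15.8 FPKM in group D). The summed level of the enterocyte markers was 16493 FPKM in group E and 18757 FPKM in group D, and enterocyte markers were thus present in both groups. Of these 12 genes 8 were below 0 and 4 above. The lowest log2 ratios were those of the ileal bile acid transporter Slc10a2 (-0.72) and of Fabp6 (-0.57, 3846 FPKM in group E and 5698 FPKM in group D). Whether both groups were sampled at the same part of the ileum was not tested.

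Markers of 2 other cell types were past 2-fold in both directions. Of 11 counted adipocyte markers 5 were higher and 4 lower in group E, among them Fabp4 at 25.6 FPKM in group E and 536 FPKM in group D, Car3 at 356 FPKM in group E and 0.0310 FPKM in group D and Cidec at 83.4 FPKM in group E and 32.9 FPKM in group D. The summed level of all 15 adipocyte markers was 985 FPKM in group E and 728 FPKM in group D. Of the 15, 3 were listed at 0 in group D and so not counted, namely Cfd (274 FPKM in group E), Retn (53.4 FPKM in group E) and Lep (1.53 FPKM in group E). Of 10 B cell markers 5 were higher and 4 lower, among them Ms4a1 at 10.2 FPKM in group E and 3.00 FPKM in group D, Cd79b at 6.28 FPKM in group E and 14.7 FPKM in group D and Faim3 at 5.04 FPKM in group E and 1.48 FPKM in group D. Their summed level was 44.9 FPKM in group E and 47.5 FPKM in group D. The part of fat or immune cells in the difference of Mt1 was not tested.

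Of the remaining types, pancreatic acinar markers had 11 of 13 genes under 1 FPKM in both groups, and Clps was at 83.7 FPKM in group E and 67.6 FPKM in group D. Of 3 counted hepatocyte markers, Trf was at 10.2 FPKM in group E and 42.7 FPKM in group D and Apoh at 0.669 FPKM in group E and 1.42 FPKM in group D, both lower past 2-fold. Of 10 T cell markers Cd2 alone was past it, at 1.69 FPKM in group E and 3.63 FPKM in group D. None of 11 macrophage markers was past 2-fold, with 6 above and 5 below 0 and a median of 0.04, and Lyz2, which has the highest mean and the lowest log2 ratio of the list (-0.49), was at 109 FPKM in group E and 154 FPKM in group D. None was past 2-fold among markers of smooth muscle (Myl9, 213 FPKM in group E and 169 FPKM in group D), enteric neurons and glia (Uchl1, 3.95 FPKM in group E and 3.75 FPKM in group D) and endothelium (Pecam1, 21.4 FPKM in group E and 14.98 FPKM in group D). Most of them were nonetheless above 0. These were 8 of 9 for smooth muscle (median 0.32), 5 of 6 counted for neurons and glia (0.20) and 8 of 8 for endothelium (0.45).

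**Figure D5:**
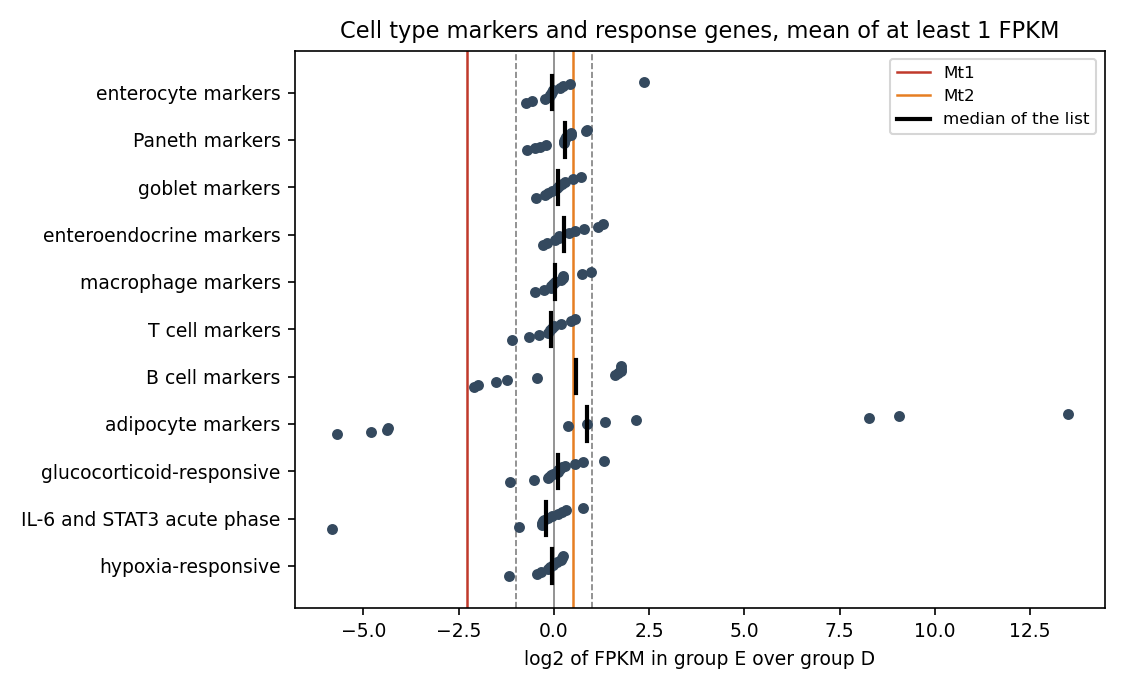
Log2 ratio of group E over group D for the counted genes (dots) of cell type marker lists and response lists, with black bars at each list's median and vertical lines at Mt1 (-2.28) and Mt2 (0.50). The medians of the enterocyte, Paneth and goblet lists lie between -0.05 and 0.29, while dots of the adipocyte and B cell lists spread to both sides of the dashed 2-fold lines.

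The genes nearest to Mt1 by both values (Euclidean distance in log2 FPKM over the 2 groups) were Cox5a, a subunit of cytochrome c oxidase, at 145 FPKM in group E and 288 FPKM in group D (distance 0.92), Upp1, a uridine phosphorylase, at 199 FPKM in group E and 335 FPKM in group D (1.14), Slc13a1, a sulfate transporter, at 108 FPKM in group E and 215 FPKM in group D (1.15), and Slc10a2, the ileal bile acid transporter, at 142 FPKM in group E and 234 FPKM in group D (1.15). None of the 4 differed between the groups by as much as Mt1. The genes nearest to Mt2 lay much closer, within a distance of 0.081. They were Mrpl12, a mitochondrial ribosomal protein gene, at 95.3 FPKM in group E and 66.6 FPKM in group D, the histone gene Hist1h2bc at 91.5 FPKM in group E and 63.2 FPKM in group D, the intestinal transcription factor Isx at 89.3 FPKM in group E and 64.5 FPKM in group D, and Tomm5, part of the mitochondrial import pore, at 94.5 FPKM in group E and 62.6 FPKM in group D. With 2 groups, likeness of this kind is weak.

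Mt1 and Mt2 are short, with first-named transcripts of 549 nt (Mt1) and 511 nt (Mt2) in GENCODE M21. Of 343 counted genes whose first-named transcript is under 600 nt, 5.54% were lower and 9.91% higher past 2-fold, against 1.17% and 1.31% of 11610 longer genes. Of the 123 short genes with a mean of at least 50 FPKM, 3 were lower and 18 higher past 2-fold. None of 500 stretches of 50 nt of that Mt1 transcript and none of 462 of that of Mt2 occurred without mismatch in annotated transcripts of another gene, and how reads were assigned to the 2 genes was not tested. The part of transcript length in the difference of Mt1 was not tested. The glycolysis gene Gapdh, used in all cells, stood at only 2.98 FPKM in group E and 0.120 FPKM in group D, so single values may be failed estimates. Its group D value was the same, to the last digit listed, as that of the adipocyte hormone gene Adipoq, while no member shared a listed value with another gene in the same group. Whether an estimate failed for Mt1 was not tested. The direction of each gene rests on its 2 values as listed and was not checked gene by gene. None of the members is among the genes that the study also measured by qRT-PCR. Adipocyte and B cell markers, each of 1 cell type, went both ways past 2-fold. Ranks and shares of lower or higher genes hold only for the directions as listed. By size alone, whatever the direction, Mt1 was 52nd of the 12694 counted genes and 8th of the 697 with a mean of at least 100 FPKM.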

How the data were processed

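RNA-seq of mouse ileum was analysed from 1 deposited table with 1 FPKM value per gene in group E and group D. Per the submitters' processing notes, Bowtie2 2.2.3, TopHat2 2.0.12 and DESeq 1.18.0 were used. The FPKM deposited by the authors join 2 libraries per group in a way the sources do not state, and depth per value is unknown, so no counting error can be given. The authors' fold change, P-value and q-value columns, and a second table of pathway enrichment, were not used. The genome build was not given in the sources used here. All 10 members overlap the same-named gene of GRCm38, as do 21481 of 21722 symbols found, and 1 was added to each start, which counts from 0. The spans given for genes are those of the authors and can differ from the annotated gene. For Slc30a1 and Slc30a10 they begin before the GENCODE M21 starts, at chr1:191906767 and chr1:185454848.

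The log2 ratio of group E over group D was taken without a pseudocount for genes above 0 in both groups, and genes with a mean of at least 1 FPKM were counted. A 2-fold limit stands in for a test. The members and gene lists were chosen with earlier results of these data known. Named genes are all members; from the other zinc, copper and MTF1 lists each gene past 2-fold, or else the 2 with the highest mean; from marker and response lists up to 3 past 2-fold, or else the 1 with the highest mean; the 4 nearest to Mt1 and Mt2; and genes within 100 kb of Mt1. Slc30a3, Slc30a8, Slc39a2, Slc39a12, Cox17, Gapdh, Adipoq, Defa4, Defa22, Defa26, Il6, Saa2, Orm1, Reg3b, Fabp6, Cfd, Retn, Lep and the 5 genes below Mt1 were named after their values were seen. Scripts were tested on simulated data. Pseudocounts, scalings, filters, fold limits and promoter windows were tried as alternatives. Python 3.11.15, numpy 2.4.6, pandas 2.3.3 and matplotlib 3.10.9 were used.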

Additional observations from a re-analysis of the deposited data

How the results depend on the processing

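Mt1 stayed the only member past the limit under every pseudocount, scaling, filter and fold limit tried, changed 1 at a time and up to 4-fold, with log2 ratios between -2.64 and -2.27 over pseudocounts and scalings. Mt2 lay between 0.14 and 0.50 and Slc30a10 between -0.94 and -0.52, the low ends being those with the summed FPKM of the whole table made equal, chosen after seeing the data, which turned Mt3, Mtf1 and Slc30a2 below 0. The share of all genes past the limit moved from 2.9% to 1.39% with a pseudocount of 1, 8.89% without a filter, 1.63% at a mean of at least 5 FPKM, 10.2% at 1.5-fold, 0.961% at 3-fold and 0.536% at 4-fold, by construction, and was 15.5% among transcripts under 600 nt, chosen after seeing the data. With equal totals of counted genes under 10000 FPKM in both groups, 161 genes were higher and 208 lower past 2-fold, against 202 and 166 as deposited, and with those of the whole table made equal these were 90 and 549, or 5.03% of all genes, by construction of the shift. Counts past 2-fold went to 0 with a pseudocount of 1 for MTF1 targets, hypoxia-responsive genes and T cell markers, and to 1 for glucocorticoid-responsive genes and hepatocyte markers. At a mean of at least 5 FPKM, where fewer genes are counted, they went to 0 for copper handling, MTF1 targets, hypoxia-responsive genes and T cell markers, to 1 for glucocorticoid-responsive genes and hepatocyte markers (median -2.06), and to 2 for B cell markers, whose median turned from 0.59 to -0.43. No replicate could be left out, since each group has 1 value, and none of these settings addresses the spread between mice.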
